A study of Rattus norvegicus with 4 samples.

Results

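This account covers the transcripts of collagens, laminins, matrix proteoglycans, matrix proteases and their inhibitors, and of genes typical of the meninges, in the hippocampus of aged rats. A probe set, the group of short probes that reads 1 transcript on an Affymetrix array, was taken as a member when the array annotation gave it exactly 1 gene symbol and that symbol belonged to these families by its name. The families were Col, Lama, Lamb, Lamc, Adamts, Mmp and Timp followed by a digit, together with a fixed list of single genes such as Dcn, Lum, Ptgds and Tnr. No probe set used here carried Thbs1 or Slc6a20 as its only symbol. The rule gave 147 probe sets of 101 genes, out of 31042 probe sets and 14217 named genes. Of these, 53 probe sets of 43 genes had a signal of 100 or more on 2 or more of the 4 arrays and entered the test, and 94 did not.

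The samples were hippocampi of male Wistar rats that were 15 months old when a 4-week battery of chronic unpredictable mild stress began and 16 months old at dissection, and of age-matched nonstressed controls kept under standard housing. Each group had 2 arrays, and each array carried total RNA pooled from 3 rats, so that differences between single rats cannot be seen. Whether both pools of a group came from separate rats is not given in the sources used here, and each p measures only the spread between pools.

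The extracellular matrix of the brain has several layers. Fibrillar collagens and small leucine-rich proteoglycans such as decorin and lumican are laid down mainly by fibroblasts of the meninges and of the larger vessels, while type IV collagen and laminins form the basement membranes of vessels and of the brain surface. Between neurons and glia the matrix is made of hyaluronan-binding proteoglycans, link proteins and tenascins, which condense into perineuronal nets around some neurons. Metalloproteinases of the Mmp and Adamts families cut these proteins, and the Timp proteins inhibit them.

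The 4 arrays were alike in scale, with median signals of 79.6 to 82.3 and 46.4% to 46.8% of probe sets at a signal of 100 or more. Log2 signals of the tested probe sets correlated at a Pearson r of 0.993 and 0.994 within the groups and 0.972 to 0.974 between them, across probe sets, which are not independent replicates. Of the 10 markers of hippocampal neurons on the array, all 10 were bright enough to be tested, and their summed signal was 12086.5 and 12163.1 on the stressed arrays and 12563.4 and 12065.0 on the control arrays. The sum is carried by the brightest markers and does not show single ones, of which 2 rose and 2 fell at adjusted p under 0.05 from limma. The number of arrays limits the precision, and an exact permutation test of 2 against 2 arrays cannot give a two-sided p under 0.333.

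Stressed rats had lower signals of Col1a1, Col1a2, Col3a1, Dcn, Ogn, Slc6a20a, Aldh1a2, Ptgds, Mgp and the link protein gene Hapln1. Higher signals were seen for Col5a2, Col11a2, Col8a1, Col8a2, Col9a2, Col25a1, Lama2, Fn1 and 1 probe set of Mmp24. Igfbp2, which is counted here with the meningeal barrier genes, was higher too. Fibrillar collagens and meningeal barrier genes thus stood on both sides. At adjusted p under 0.05 from limma, called the test from here on, 14 member probe sets fell, 11 rose and 28 did not pass. These were 26.4% and 20.8% of the 53 tested, against 11.8% that fell and 12% that rose among all 14791 tested probe sets. The share that rose was no longer above that of all probe sets in 3 of the 4 removals of an array, being 1.89% of members against 5.52% of all without control replicate 1, 3.77% against 4.39% without control replicate 2 and 7.55% against 7.76% without stressed replicate 1, although it was 9.43% against 7.67% without stressed replicate 2. With no filter it was 3.40% against 3.94%. The share that fell stayed above that of all probe sets, at 13.2% against 6.15%, 15.1% against 5.35% and 20.8% against 9.07% in these 3 removals, 24.5% against 8.88% without stressed replicate 2 and 7.48% against 4.32% with no filter. The members were chosen with earlier results of these data known, so an excess among them is not independent evidence. The members' log2 fold changes ran from -0.99 to 0.92 with a median of 0.10, and the median over all tested probe sets was 0.02. Probe sets of the same gene were counted apart, and 4 of the falls were of Ogn, 2 of Col1a2, and 2 of the rises of Col5a2. By gene, 10 of the 43 tested had a probe set that fell and 10 had a probe set that rose. Over all 9264 named genes, counted by the brightest tested probe set rather than by any, 10.2% fell and 11.1% rose. Since the tissue was measured as a whole, fewer cells of a type and less RNA per cell cannot be told apart in any of these values.

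**Figure D1:**
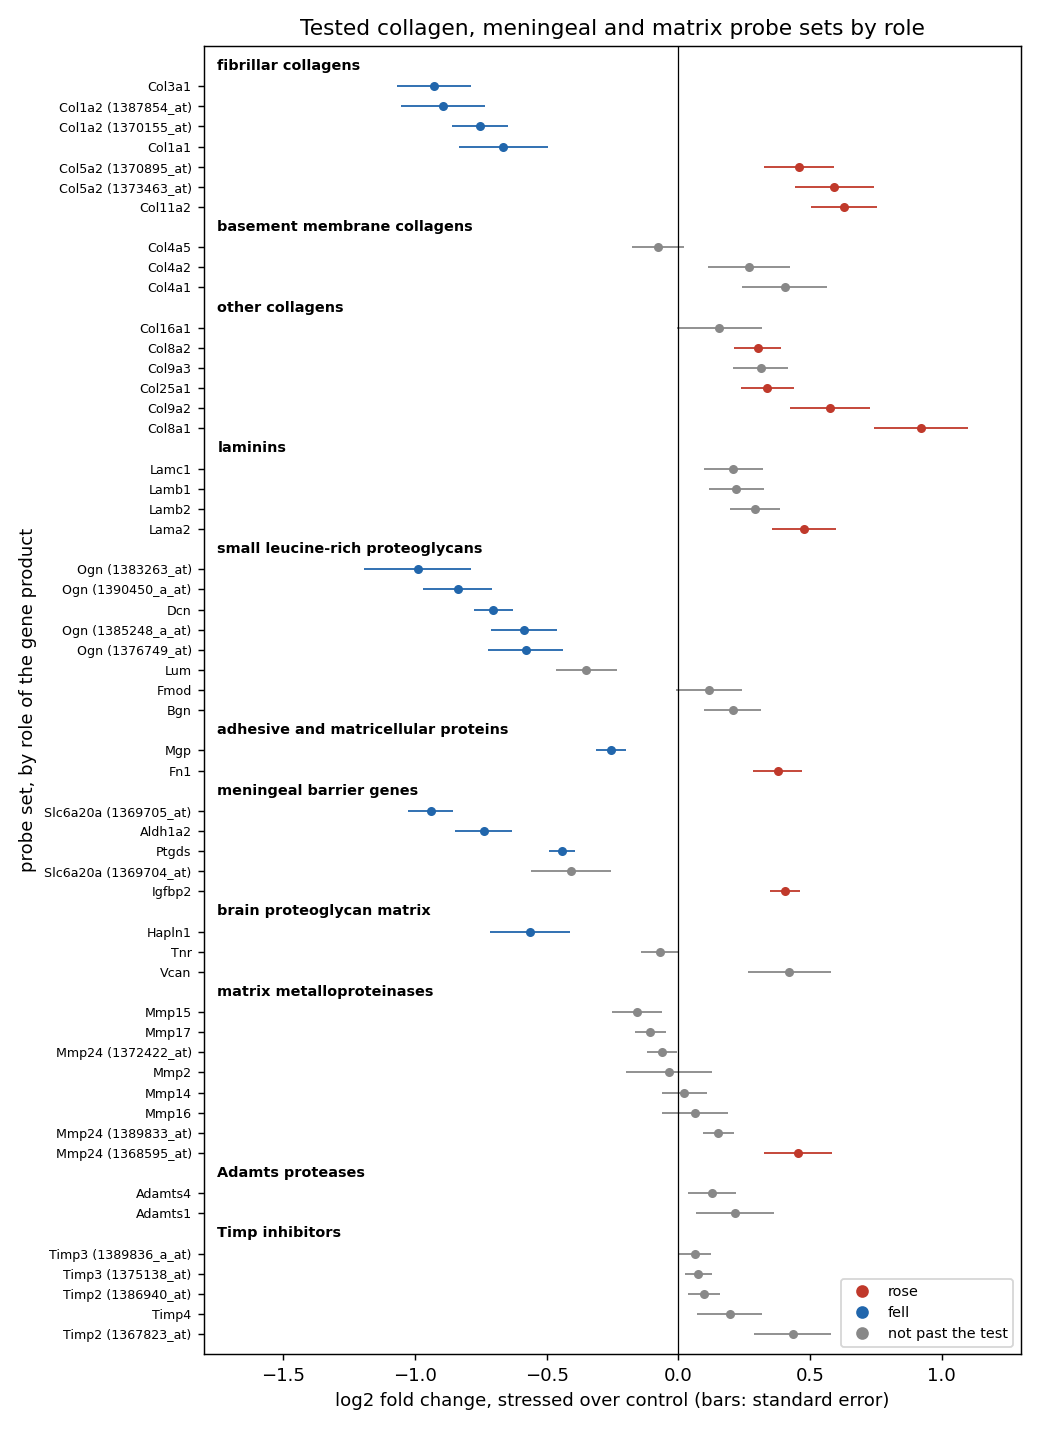
Log2 fold changes of the 53 tested member probe sets (x axis, stressed over nonstressed, bars are standard errors, 2 arrays a group), listed by the role of the gene product and coloured by the test. Of the 14 falls, 4 are in fibrillar collagens, 5 in small leucine-rich proteoglycans and 3 in meningeal barrier genes, beside those of Mgp and Hapln1. Each of the 6 tested other collagens lies above 0, of which 2 passed the filter only through the stressed arrays.

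None of the members reached a 2-fold change with an unadjusted p under 0.05, the study's thresholds, which 1.38% of all tested probe sets passed as lower and 0.216% as higher. At an unadjusted p under 0.05 alone, 17 members (32.1%) were higher and 16 (30.2%) lower by limma, compared with 20.4% and 17.6% of all tested probe sets. The methods' t-test on log2 signals called no member at adjusted p under 0.05, with 8 (15.1%) higher and 11 (20.8%) lower at an unadjusted p under 0.05, against 12.6% and 12% of all. The signals of the groups did not overlap in 44 of the 53 member probe sets, or 83.0%, compared with 64.4% of all tested probe sets. The filter itself can favour a difference, because 8 members passed it through 1 group only. When a mean signal of 100 or more over all arrays was required instead, 10 of 50 member probe sets rose and 14 fell, against 11.9% and 11.5% of all probe sets. Just inside the filter stood Mmp2, with 106.9 and 90.3 on the stressed and 106.1 and 95.6 on the control arrays, and just outside it Timp1, with 86.6 and 75.1 against 99.9 and 118.1.

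Fibrillar collagens form the banded fibres of connective tissue, and their transcripts split into a lower and a higher set. All 7 tested probe sets of this group passed the test, 4 of them lower and 3 higher. Col3a1, which encodes the collagen of fine, pliable fibres, had signals of 81.4 and 91.1 on the stressed arrays and 165.8 and 161.5 on the control arrays. The control signals lay about the same distance above both stressed ones, and the log2 fold change was -0.93 (standard error, SE, 0.14, limma adjusted p = 0.00365), or 1.90-fold lower. Col1a2, which encodes the second chain of type I collagen, was read by a pair of probe sets. The first (1370155_at) gave 171.5 and 155.3 against 275.2 and 274.7, a log2 fold change of -0.75 (SE 0.11, limma adjusted p = 0.00279). The other (1387854_at) gave 97.9 and 79.0 against 173.2 and 154.0, a log2 fold change of -0.89 (SE 0.16, limma adjusted p = 0.00722). Both reads of Col1a2 thus showed lower signals on each stressed array than on each control array.

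Col1a1, which encodes the main chain of type I collagen, had signals of 72.8 and 86.0 against 115.4 and 136.2, a log2 fold change of -0.66 (SE 0.17, limma adjusted p = 0.0267). Its other probe set stayed under the filter, at 54.7 to 79.3 on the 4 arrays. Col3a1, the dimmer probe set of Col1a2 and the tested one of Col1a1 passed the filter only through the control arrays. Without control replicate 1 the call of Col1a2 at 1387854_at was lost (adjusted p = 0.0647), and that of Col1a1 was lost without stressed replicate 1, control replicate 1 or control replicate 2 (adjusted p 0.0999, 0.068 and 0.169) and when dim probe sets were kept in (adjusted p = 0.0643).

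Col5a2 and Col11a2 encode chains of the minor fibrillar collagens V and XI, which set the thickness of fibres, and both were higher in stressed rats. The signals of Col5a2 were 239.4 and 189.4 against 130.9 and 152.2 at 1373463_at, a log2 fold change of 0.59 (SE 0.15, limma adjusted p = 0.0267). At 1370895_at they were 242.8 and 209.0 against 151.3 and 177.8, a log2 fold change of 0.46 (SE 0.13, limma adjusted p = 0.0423). The groups of Col5a2 did not overlap at either probe set, and stressed replicate 1 was the highest array at both. Col11a2 had 218.5 and 198.3 against 126.8 and 142.8, a log2 fold change of 0.63 (SE 0.13, limma adjusted p = 0.0111).

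The calls of Col5a2 were lost at both probe sets without stressed replicate 1 (adjusted p 0.126 and 0.18), control replicate 1 (0.137 and 0.189) or control replicate 2 (0.0692 and 0.0719), when dim probe sets were kept in (0.0543 and 0.0766) and without an intensity trend (0.0588 and 0.0676). At 1370895_at the call was also lost after quantile normalization (adjusted p = 0.0503), and that of Col11a2 without stressed replicate 1 or control replicate 1 (adjusted p 0.0526 and 0.0677). The 12 other probe sets of fibrillar collagens, among them those of Col2a1, Col5a1, Col11a1 and Col27a1, had signals of 0.4 to 79.3 and were not tested.

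**Figure D2:**
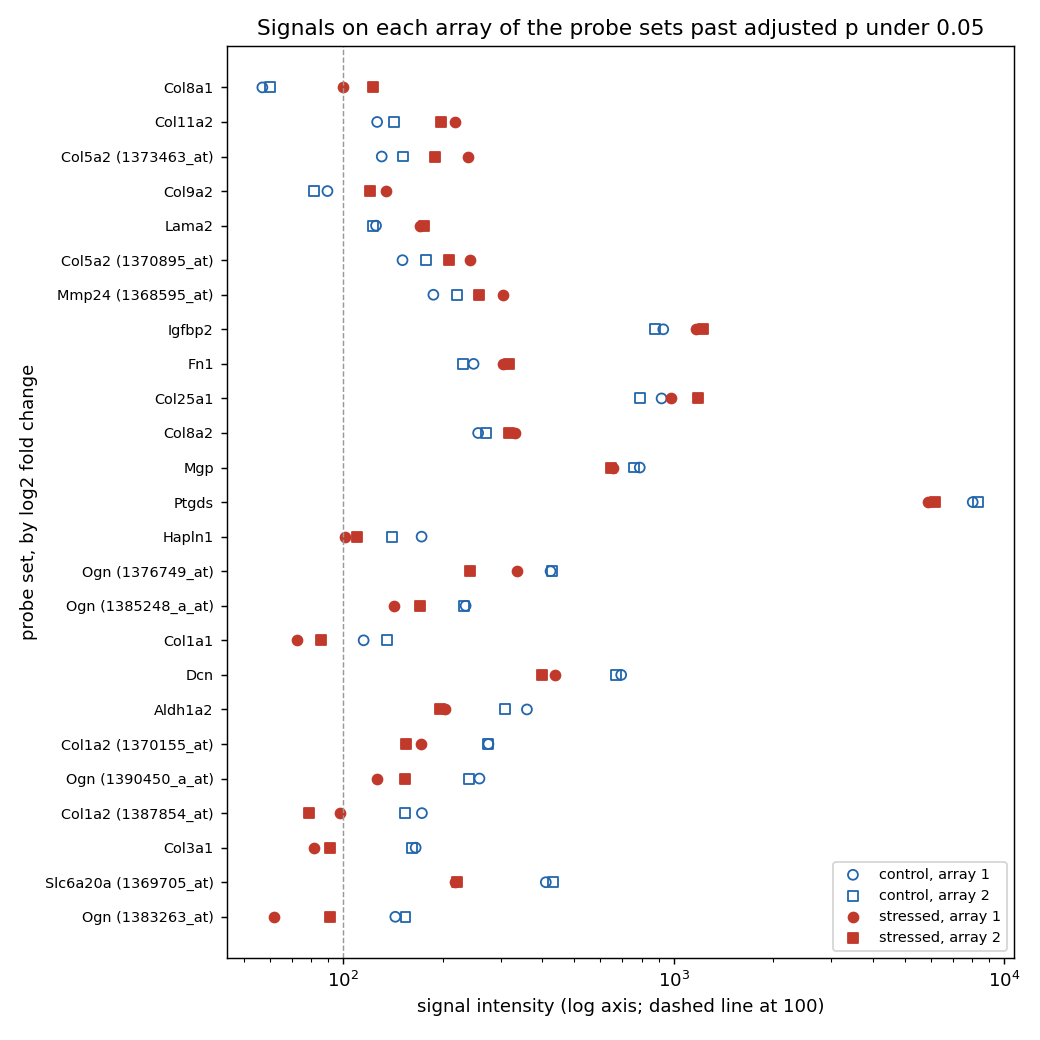
Signal intensity on each of the 4 arrays (x axis, log scale) for the 25 member probe sets past adjusted p under 0.05, ordered by log2 fold change. In each row both stressed arrays lie on the same side of both control arrays. The rows were picked by the test on these same arrays, which favours such a separation, and 64.4% of all tested probe sets did not overlap either. Several fallen probe sets, such as those of Col1a1 and Col3a1, drop below a signal of 100 (dashed line) on the stressed arrays.

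Small leucine-rich proteoglycans bind to collagen fibres and set their spacing. All 8 of their probe sets were tested, of which 5 fell, none rose and 3 did not pass, while 6 were lower and none higher at an unadjusted p under 0.05. Dcn, the gene of decorin, gave 438.4 and 399.1 on the stressed arrays and 694.0 and 667.3 on the control arrays. Both stressed pools lay well below both control pools, with a log2 fold change of -0.70 (SE 0.07, limma adjusted p = 0.000689), or 1.63-fold lower. Ogn encodes osteoglycin, or mimecan, and fell at each of its 4 probe sets.

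The largest difference of Ogn was at 1383263_at, with signals of 61.7 and 91.4 against 143.9 and 154.5 and a log2 fold change of -0.99 (SE 0.20, limma adjusted p = 0.0121). This probe set passed the filter only through the control arrays. At 1390450_a_at the signals were 126.7 and 153.7 against 258.6 and 240.4, a log2 fold change of -0.84 (SE 0.13, limma adjusted p = 0.00422). At 1385248_a_at they were 142.3 and 170.6 against 234.8 and 232.7, with a log2 fold change of -0.59. The remaining probe set of Ogn, 1376749_at, had 336.6 and 242.7 against 424.2 and 429.7 and a log2 fold change of -0.58. No stressed array of Ogn reached a control array at any of the 4. Lum, the gene of lumican, had 236.5 and 292.7 against 328.9 and 341.7, a log2 fold change of -0.35 that missed the threshold (limma adjusted p = 0.0638). It passed after median centring (adjusted p = 0.0335) and without stressed replicate 2 (adjusted p = 0.0191, log2 fold change -0.50). Bgn (biglycan) and Fmod (fibromodulin) had log2 fold changes of 0.21 and 0.12 and did not pass. Without control replicate 1 or 2, 3 of the 4 probe sets of Ogn lost their call (adjusted p 0.0675 to 0.126), that at 1385248_a_at also without stressed replicate 1 (adjusted p = 0.052) and that at 1376749_at with no filter (adjusted p = 0.0533) or no intensity trend (adjusted p = 0.0803).

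The genes named for the barrier and secretory functions of the meninges were mostly lower as well. Of their 5 probe sets 3 fell, 1 rose and 1 did not pass the test. Slc6a20a encodes a proline transporter of the meninges, and at 1369705_at its signals were 217.6 and 221.6 in stressed rats and 410.5 and 431.9 in nonstressed controls. The pools of each group differed by little compared with the distance between the groups, and the log2 fold change was -0.94 (SE 0.09, limma adjusted p = 0.000358), or 1.92-fold lower. Its other probe set, 1369704_at, gave 83.6 and 79.1 against 106.1 and 109.5, a log2 fold change of -0.41 that did not pass (limma adjusted p = 0.0899) except without an intensity trend (adjusted p = 0.0265). That probe set passed the filter only through the control arrays.

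Aldh1a2 encodes the enzyme that makes retinoic acid from retinaldehyde and is a known product of meningeal cells. It had 202.8 and 196.1 against 359.9 and 308.0, a log2 fold change of -0.74 (SE 0.11, limma adjusted p = 0.00316). Ptgds encodes prostaglandin D synthase, an abundant secreted protein of the leptomeninges, the choroid plexus and oligodendrocytes. The signals of Ptgds were 5873.7 and 6192.9 against 8028.8 and 8345.4, a log2 fold change of -0.44 (SE 0.05, limma adjusted p = 0.000903). Igfbp2, which encodes a binding protein of insulin-like growth factors that the choroid plexus also makes, went the other way. Its signals were 1165.7 and 1228.9 against 930.2 and 878.2, a log2 fold change of 0.41 (SE 0.06, limma adjusted p = 0.00262). The calls of Slc6a20a at 1369705_at, Aldh1a2, Ptgds, Igfbp2, Dcn, Col3a1, Col1a2 at 1370155_at and Ogn at 1390450_a_at were the 8 that held in each alternative by limma that tested them.

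Fn1 and Mgp moved in opposite directions. Fn1, the gene of fibronectin, which links cells to collagen, had signals of 305.4 and 317.4 in stressed rats and 248.2 and 231.1 in controls, a log2 fold change of 0.38 (SE 0.09, limma adjusted p = 0.0235). Mgp encodes matrix Gla protein, an inhibitor of calcification made by vessel and meningeal cells, and had 655.1 and 644.5 against 789.7 and 761.0. This was a log2 fold change of -0.25 (SE 0.06, limma adjusted p = 0.0172). The groups did not overlap for either gene, although both differences were small. The call of Fn1 was lost without any 1 of the 4 arrays (adjusted p 0.0562 to 0.118), and that of Mgp without stressed replicate 2 or either control replicate (adjusted p 0.0592 to 0.0953) and without an intensity trend (adjusted p = 0.0602). Tnc, the gene of tenascin-C, was just under the filter with 97.4 and 96.6 against 91.1 and 78.5.

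Genes of basement membranes mostly did not pass the test. Type IV collagen is the scaffold of basement membranes, and 3 of its probe sets were tested. None rose or fell by limma, and 1 was higher and none lower at an unadjusted p under 0.05. Col4a1 gave 140.0 and 112.1 against 95.8 and 93.5, a log2 fold change of 0.40 (95% interval 0.03 to 0.78, limma adjusted p = 0.109). This probe set was the higher one, and it passed the filter only through the stressed arrays. Col4a2 had 191.7 and 162.4 against 130.3 and 164.7, with overlapping groups and a log2 fold change of 0.27. Col4a5 had 220.2 and 219.9 against 229.1 and 235.0, a log2 fold change of -0.08, and neither passed. Col18a1, Col15a1, Col4a4, Col4a6 and Col7a1 had signals of 0.9 to 94.9, together with a further probe set of Col4a1, and were not tested.

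Laminins are the cross-shaped proteins to which cells bind in a basement membrane. Of 4 tested laminin genes 1 rose and none fell, while 2 were higher and none lower at an unadjusted p under 0.05. Lama2, whose product serves in the basement membranes of glial endfeet and muscle, had signals of 170.9 and 175.8 against 125.8 and 123.3. The difference was larger than the spread in either group, with a log2 fold change of 0.48 (SE 0.12, limma adjusted p = 0.0267). It was no longer called without any 1 of the 4 arrays (adjusted p 0.0766 to 0.112). Lamb2, which encodes a beta chain, gave 316.8 and 353.9 against 267.6 and 279.8. Lamb1, of another beta chain, gave 247.3 and 278.8 against 229.1 and 221.5, and Lamc1, of a gamma chain, 302.6 and 259.7 against 230.1 and 255.3. Their groups did not overlap, but none of them passed, with log2 fold changes of 0.29, 0.22 and 0.21 (limma adjusted p 0.0594, 0.163 and 0.216). The other 10 laminin probe sets, among them those of Lama1, Lama4 and Lama5, had signals of 0.5 to 91.3.

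Of 27 probe sets of collagens outside these classes, the 6 that could be tested all lay on the higher side. Of these 6 tested probe sets 4 rose, none fell and 2 did not pass, with 5 higher and none lower at an unadjusted p under 0.05. However, 2 of the 6 passed the filter only through the stressed arrays. With a mean signal of 100 or more required instead, 3 of 5 rose. The other 21 had signals of 1.0 to 92.0, were not tested and differed in both directions. Picked with their values known, Col6a1 had 60.0 and 45.5 against 92.0 and 63.7, and Col19a1 80.1 and 45.3 against 44.7 and 39.7. Col8a1 and Col8a2 encode the short-chain collagen VIII of vessel walls and Descemet's membrane. Col8a1 had 100.1 and 123.3 on the stressed arrays and 57.0 and 60.2 on the control arrays, a log2 fold change of 0.92 (SE 0.18, limma adjusted p = 0.00959). It was the largest rise among the members, and it passed the filter only through the stressed arrays. Col8a2 gave 332.1 and 318.2 against 256.2 and 271.4, a log2 fold change of 0.30 (SE 0.09, limma adjusted p = 0.0442).

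Col9a2 encodes a chain of collagen IX, which decorates the surface of fibres, and had 135.0 and 120.6 against 89.7 and 81.7, a log2 fold change of 0.58 (SE 0.15, limma adjusted p = 0.0302). It too passed the filter only through the stressed arrays. The partner chain gene Col9a3 gave 265.1 and 288.1 against 211.1 and 234.3, a log2 fold change of 0.31 that missed the threshold (limma adjusted p = 0.0656). Col25a1, a membrane-bound collagen of neurons whose shed part binds to amyloid plaques, had 982.0 and 1187.8 against 919.4 and 793.0, a log2 fold change of 0.34 (SE 0.10, limma adjusted p = 0.0469). The lowest stressed signal of Col25a1 lay close to the highest control signal. Col16a1 had a log2 fold change of 0.16 and overlapping groups. Each of the 4 calls was lost in some removal of an array. That of Col8a1 went without stressed replicate 2 or either control replicate (adjusted p 0.0547 to 0.0594), those of Col8a2 and Col9a2 without any 1 of the arrays (0.089 to 0.167 and 0.0572 to 0.141), and that of Col25a1 without stressed replicate 2 or either control replicate (0.0637 to 0.255). With no filter on dim probe sets Col8a1 was the only one of these that rose, and without an intensity trend the calls of Col8a2 and Col25a1 were lost (adjusted p 0.0515 and 0.139). That of Col8a2 was also lost after median centring (0.0612).

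Among the members, the proteoglycan matrix between neurons showed a fall at 1 of its 3 tested probe sets. Outside the members, Bcan and Hapln4, named after their values were seen, rose by 0.20 and 0.26 on the log2 scale (limma adjusted p 0.0347 and 0.00916). They belong to the list of 29 other secreted matrix and proteoglycan genes given below, of which 9 rose and 1 fell. Hapln1 encodes the link protein that ties proteoglycans to hyaluronan in perineuronal nets, and 1 of its 3 probe sets was tested. That probe set gave 101.4 and 110.1 in stressed rats and 172.8 and 141.0 in controls, a log2 fold change of -0.56 (SE 0.15, limma adjusted p = 0.0328). The other probe sets of Hapln1, with 59.3 and 56.8 against 66.6 and 72.4 and with 74.2 and 90.8 against 64.3 and 63.0, were too dim to test and differed in opposite directions. The call was lost without any 1 of the arrays (adjusted p 0.0568 to 0.182) and when dim probe sets were kept in (0.0678).

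Vcan, the gene of the proteoglycan versican, had 1 tested probe set of 5. It gave 145.2 and 153.6 against 98.4 and 126.2, a log2 fold change of 0.42 (95% interval 0.05 to 0.79) that did not pass (limma adjusted p = 0.0927). Its untested probe sets were not of 1 direction, with 103.4 and 89.9 against 67.3 and 48.7 at 1371232_a_at and 77.1 and 74.3 against 83.1 and 95.5 at 1388054_a_at. Tnr encodes tenascin-R, a partner of the proteoglycans in the nets, and had overlapping groups, with 423.6 and 451.2 against 466.6 and 451.1. Its log2 fold change was -0.07 (95% interval -0.24 to 0.10, limma adjusted p = 0.527). The single probe set of Ncan gave 8.5 to 24.1 and those of Acan 2.9 to 90.9, so that neurocan and aggrecan could not be compared here.

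Among the matrix-cutting enzymes and their inhibitors 1 tested probe set passed. Many could not be tested, namely 16 of 24 Mmp, 13 of 15 Adamts and 3 of 8 Timp probe sets. Of 8 tested metalloproteinase probe sets 1 rose and none fell, with 2 higher and none lower at an unadjusted p under 0.05. The riser was 1 of 3 probe sets of Mmp24, the gene of a membrane-bound enzyme of neurons. At 1368595_at Mmp24 had 304.3 and 257.1 against 187.6 and 221.8, a log2 fold change of 0.46 (SE 0.13, limma adjusted p = 0.0385), with no overlap of the groups. At 1389833_at it had 840.1 and 793.3 against 724.6 and 744.2, and at 1372422_at 734.5 and 726.2 against 750.4 and 773.5, with log2 fold changes of 0.15 and -0.06 that did not pass. Its call was lost without stressed replicate 1 or either control replicate (adjusted p 0.0648 to 0.182), with no filter (0.0715) and without an intensity trend (0.0764). Mmp17, a membrane-anchored enzyme, gave 1251.9 and 1206.3 against 1265.6 and 1380.8, and Mmp15, of the membrane-bound class as well, 528.5 and 444.9 against 517.2 and 565.4. Mmp14, Mmp15, Mmp16, Mmp17 and Mmp2 had log2 fold changes of 0.02, -0.16, 0.06, -0.11 and -0.04, and the groups overlapped for each of them other than Mmp17. Mmp3, Mmp9 and 9 further Mmp genes had no tested probe set, and the highest signal of an untested Mmp probe set was 92.4.

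Adamts1 and Adamts4, which encode proteases of lecticans, were the tested members of their family. Adamts1 gave 117.3 and 107.8 against 92.7 and 101.0 and Adamts4 330.0 and 334.0 against 322.7 and 286.0, with log2 fold changes of 0.22 and 0.13 that did not pass. No Adamts probe set was called, and none had an unadjusted p under 0.05. Timp2 had 130.9 and 130.2 against 90.3 and 103.4 at 1367823_at, a log2 fold change of 0.43 (limma adjusted p = 0.0668) that passed only without an intensity trend (adjusted p = 0.0402). At 1386940_at Timp2 had 1418.0 and 1403.8 against 1251.6 and 1389.0, a log2 fold change of 0.10. Timp3 gave 1089.6 and 1115.5 against 1071.7 and 1020.0 at 1375138_at, and its log2 fold changes were 0.08 there and 0.06 at its other tested probe set. Timp4 gave 307.1 and 394.1 against 308.8 and 298.9, with overlapping groups and a log2 fold change of 0.20 (limma adjusted p = 0.283). It passed only without stressed replicate 1 (log2 fold change 0.38, adjusted p = 0.0447). None of the 5 tested Timp probe sets was called by limma, and 1 was higher and none lower at an unadjusted p under 0.05.

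Several genes were read by more than 1 tested probe set, which gives a second measure of the same transcript from the same RNA. Of 7 such genes, 6 had probe sets of 1 sign, and Mmp24 did not. This count leaves out untested probe sets, and the share of such genes over the whole array was not computed. It is also not free of the filter. Slc6a20a at 1369704_at, Col1a2 at 1387854_at and Ogn at 1383263_at passed it only through the control arrays, where they were higher. All probe sets of Ogn, Col1a2 and Col5a2 passed the test in 1 direction, whereas only 1 of a pair passed for Slc6a20a. In the order of protein-coding genes of the rat assembly GRCr8, used for names and order only, Col3a1 and Col5a2 are direct neighbours, and the first fell while the other rose. Dcn and Lum, Hapln1 and Vcan, and Col4a1 and Col4a2 are neighbours as well, and in none of these pairs did both genes pass.

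**Figure D3:**
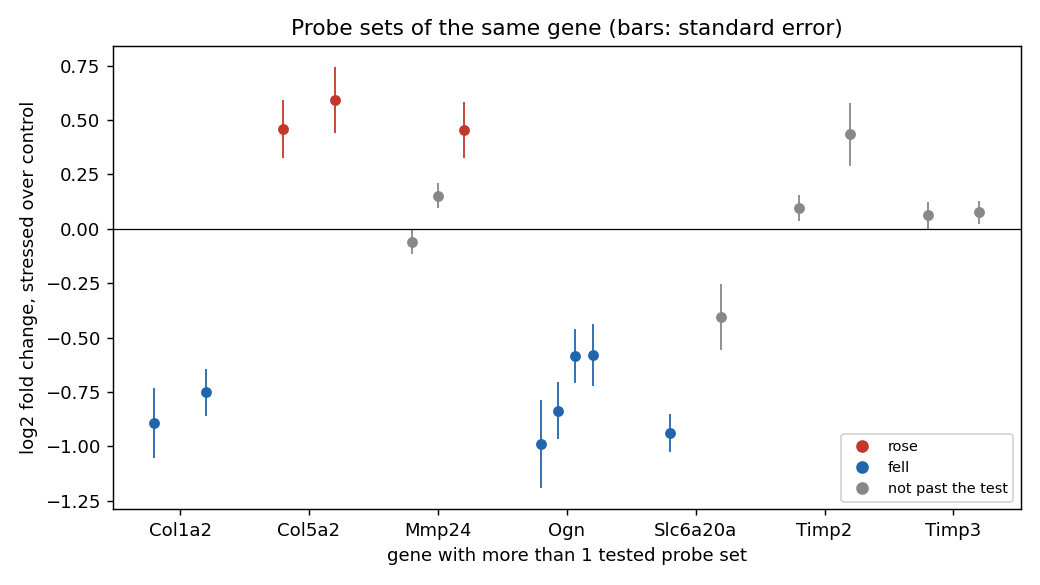
Log2 fold changes (y axis, stressed over nonstressed, bars are standard errors, 2 arrays a group) for the 7 member genes with more than 1 tested probe set. The 4 probe sets of Ogn lie between -0.99 and -0.58, and those of Mmp24 lie on both sides of 0.

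The promoters of 6 of these genes are shown to set those that fell beside those that rose, since Col1a2, Ogn, Ptgds and Slc6a20a each had at least 1 probe set whose fall held in the alternatives by limma, Col8a1 had the largest rise, and Col5a2 is the neighbour of Col3a1. The RefSeq promoter table held 30 of the 43 tested member genes, and among the called ones it did not list Col1a1, Col3a1, Dcn, Mgp, Col25a1 and Fn1. Each sequence gives the 250 bases before the annotated start in GRCr8, 5′ to 3′ on the strand of the gene, and capitals mark the GC box GGGCGG on either strand. The windows are chr4:33518307-33518556 on the plus strand for Col1a2, chr17:15258996-15259245 on the minus strand for Ogn, chr3:28682979-28683228 on the minus strand for Ptgds, chr8:132199901-132200150 on the minus strand for Slc6a20a, chr9:55090152-55090401 on the minus strand for Col5a2 and chr11:56246532-56246781 on the plus strand for Col8a1.
Col1a2: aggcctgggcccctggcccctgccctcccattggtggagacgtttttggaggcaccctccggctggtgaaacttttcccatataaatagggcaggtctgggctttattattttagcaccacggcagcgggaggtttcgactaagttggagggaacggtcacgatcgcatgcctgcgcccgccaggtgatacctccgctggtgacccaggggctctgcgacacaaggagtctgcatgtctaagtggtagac
Ogn: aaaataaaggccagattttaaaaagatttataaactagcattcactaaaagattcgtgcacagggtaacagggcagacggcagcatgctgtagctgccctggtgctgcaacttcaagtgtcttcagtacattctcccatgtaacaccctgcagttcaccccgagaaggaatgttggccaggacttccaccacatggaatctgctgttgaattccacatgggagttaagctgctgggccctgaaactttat
Ptgds: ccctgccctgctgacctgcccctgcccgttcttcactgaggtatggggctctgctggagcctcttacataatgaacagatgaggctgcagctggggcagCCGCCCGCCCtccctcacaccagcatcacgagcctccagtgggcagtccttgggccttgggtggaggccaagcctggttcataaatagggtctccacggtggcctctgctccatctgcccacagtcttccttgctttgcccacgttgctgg
Slc6a20a: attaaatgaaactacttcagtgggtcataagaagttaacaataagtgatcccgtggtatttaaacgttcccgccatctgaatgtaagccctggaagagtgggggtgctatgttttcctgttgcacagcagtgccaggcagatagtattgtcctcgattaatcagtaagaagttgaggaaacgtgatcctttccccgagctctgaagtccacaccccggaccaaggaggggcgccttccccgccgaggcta
Col5a2: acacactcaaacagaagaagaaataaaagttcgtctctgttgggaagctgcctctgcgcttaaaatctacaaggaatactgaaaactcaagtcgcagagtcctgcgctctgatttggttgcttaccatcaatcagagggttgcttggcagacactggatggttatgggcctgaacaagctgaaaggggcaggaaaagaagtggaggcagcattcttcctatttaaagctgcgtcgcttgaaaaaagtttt
Col8a1: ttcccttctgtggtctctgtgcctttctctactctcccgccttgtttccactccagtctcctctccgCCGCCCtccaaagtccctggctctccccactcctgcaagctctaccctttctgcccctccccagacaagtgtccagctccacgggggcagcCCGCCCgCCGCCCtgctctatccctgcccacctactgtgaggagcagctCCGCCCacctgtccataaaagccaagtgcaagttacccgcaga

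Among the genes with a listed promoter, the GC box stood in 1 of 6 genes that fell (Ptgds), in 6 of 8 that rose and in 12 of 16 that did not pass, against 32.4% of 27457 promoters. The letters TATAAA, searched on both strands and anywhere in the window, stood in 2 genes that fell (Col1a2 and Ogn) and in none that rose. They also stood in 1 that did not pass (Adamts1) and in 13.1% of all promoters. In Col1a2 and Ogn the match lies toward the 5′ end of the printed window and not close to the annotated start. The letters CCAAT were found in 2, 1 and 8 genes of the 3 classes and in 34.3% of all promoters. A full glucocorticoid response element was in no member promoter and in 1 of 27457. These are matches of letters in a short window and say nothing of binding.

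Other genes of the matrix were counted by list, each gene at its brightest tested probe set. Over all 9264 named genes counted in this way, 11.1% rose and 10.2% fell, while 19.2% were higher and 16.4% lower at an unadjusted p under 0.05. Of 13 genes of collagen synthesis and crosslinking 4 rose and none fell, with 6 higher and 2 lower at an unadjusted p under 0.05. The collagen lysine hydroxylase genes Plod3 and Plod1 rose by 0.44 and 0.34 on the log2 scale, and Mia3, which serves in the export of collagen, by 0.22. The 2 lower genes, named after their values were seen, were Serpinh1 (-0.32) and Ppib (-0.14), which did not pass (limma adjusted p 0.0818 and 0.0976). Of 10 further genes of basement membranes and elastic fibres 2 rose and 1 fell, namely Ltbp4 (0.45), Agrn (0.26) and the fibulin gene Efemp2 (-0.43). At an unadjusted p under 0.05, 2 were higher and 2 lower. Nid1, named after its values were seen, had the largest change of this list, -0.63, and did not pass (limma adjusted p = 0.0559).

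Among 29 other secreted matrix and proteoglycan genes 9 rose and 1 fell, with 9 higher and 5 lower at an unadjusted p under 0.05. The growth factor-binding Ccn2, the syndecan Sdc4 and the receptor proteoglycan Ptprz1 rose by 0.41, 0.40 and 0.40, and vitronectin (Vtn), named after its values were seen, was the gene that fell, by a log2 fold change of -0.44. Of 11 matrix receptors 5 rose and none fell, with 5 higher and 1 lower at an unadjusted p under 0.05. Dystroglycan (Dag1) and the integrins Itga6 and Itgb5 rose by 0.34, 0.33 and 0.38. In the list of 15 other matrix proteolysis genes 1 rose, Adam19 (0.48), and none fell, with 2 higher and 3 lower at an unadjusted p under 0.05. Ctsk and Serping1 had log2 fold changes of -0.37 and -0.25 (limma adjusted p 0.0867 and 0.103). The medians of the 5 lists were 0.14, 0.17, 0.08, 0.24 and 0.02, beside 0.02 over all genes.

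Markers of cells at the border of the hippocampus differed between the groups along with these members. Of 20 further markers of meninges and perivascular fibroblasts on the array, none of them a member, 8 were tested, and 4 fell, none rose and 4 did not pass, with 4 lower and none higher at an unadjusted p under 0.05. Islr, a secreted protein of fibroblasts, had signals of 138.0 and 137.6 in stressed rats against 242.6 and 266.2 in controls, a log2 fold change of -0.88 (SE 0.11, limma adjusted p = 0.00173). Gjb2, Serpinf1 and Crabp2 had log2 fold changes of -0.44, -0.53 and -0.62, of which Crabp2 was picked with its values known. The 4 that did not pass were Slc13a4 (0.17), Pdgfra (0.08), Gpc3 (0.09) and Nupr1 (-0.22), so that the tested markers did not all lie on the lower side. The summed signal of the 20 markers was 2802.3 and 2873.1 on the stressed arrays and 3184.3 and 3315.2 on the control arrays. No marker was at 0, while Slc22a6, Slc22a2 and Slc47a1, transporters of the arachnoid, were under the filter on all arrays at 15.3 to 81.3. The part of meningeal tissue in the lower signals of the members was not tested.

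Of 17 tested choroid plexus markers 12 rose, none fell and 5 did not pass, with 14 higher and 1 lower at an unadjusted p under 0.05. Sostdc1, F5 and Enpp2 had log2 fold changes of 0.88, 1.17 and 0.34. The summed signal of the 23 markers on the array was 23495.4 and 22256.8 in stressed rats and 17008.7 and 18806.2 in controls, and no marker was at 0. Endothelial markers were higher too, with 6 of 12 tested genes that rose and none that fell, 8 higher and none lower at an unadjusted p under 0.05, and summed signals of 6163.8 and 6241.9 against 5253.5 and 5167.1. Slco1a4, Slc2a1 and Flt1 rose by 0.33, 0.32 and 0.87. Of 7 mural cell markers 2 rose and 1 fell, namely Cspg4 (0.60), Pdgfrb (0.54) and Vtn (-0.44), and their summed signals overlapped. The part of the choroid plexus and of vessels in the higher signals of Igfbp2, Lama2 and the collagens was not tested.

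Ependymal markers were mostly lower, with 4 of 6 tested genes that fell and 1, Foxj1 (0.59), that rose. Tmem212, Dynlrb2 and Rarres2 had log2 fold changes of -1.40, -0.63 and -0.41, and the summed signals were 1661.5 and 1760.1 against 2346.2 and 2306.4. Among 10 astrocyte markers 1 rose, the glutamate transporter gene Slc1a3 (0.37), and none fell (5 higher and 1 lower at an unadjusted p under 0.05), and Gja1 and Slc1a2 had log2 fold changes of 0.13 and -0.40 that did not pass. Among 9 of microglia Csf1r (0.25) rose and C1qb (-0.39) and P2ry12 (-0.23) fell. Among 10 of oligodendrocytes and their precursors Mag (0.20) and Cspg4 (0.60) rose and Cnp (-0.25) fell. Of 10 interneuron markers 4 fell and none rose (5 lower and none higher at an unadjusted p under 0.05), with Gad2, Npy and Slc32a1 at -1.41, -0.38 and -0.38. Of 10 markers of hippocampal neurons 2 rose and 2 fell, among them Neurod2 (-0.79), Pou3f1 (-0.55) and Dsp (0.91). Of 10 tested markers of the neighbouring thalamus, striatum and cortex, 2 fell and none rose (3 lower and none higher at an unadjusted p under 0.05), namely Rorb (-1.12) and Rora (-0.51), while Fezf2 (-0.22) did not pass, and the summed signals were 3743.4 and 3775.5 against 4067.1 and 4087.6. The part of neighbouring tissue in the signals of the members was not tested.

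**Figure D4:**
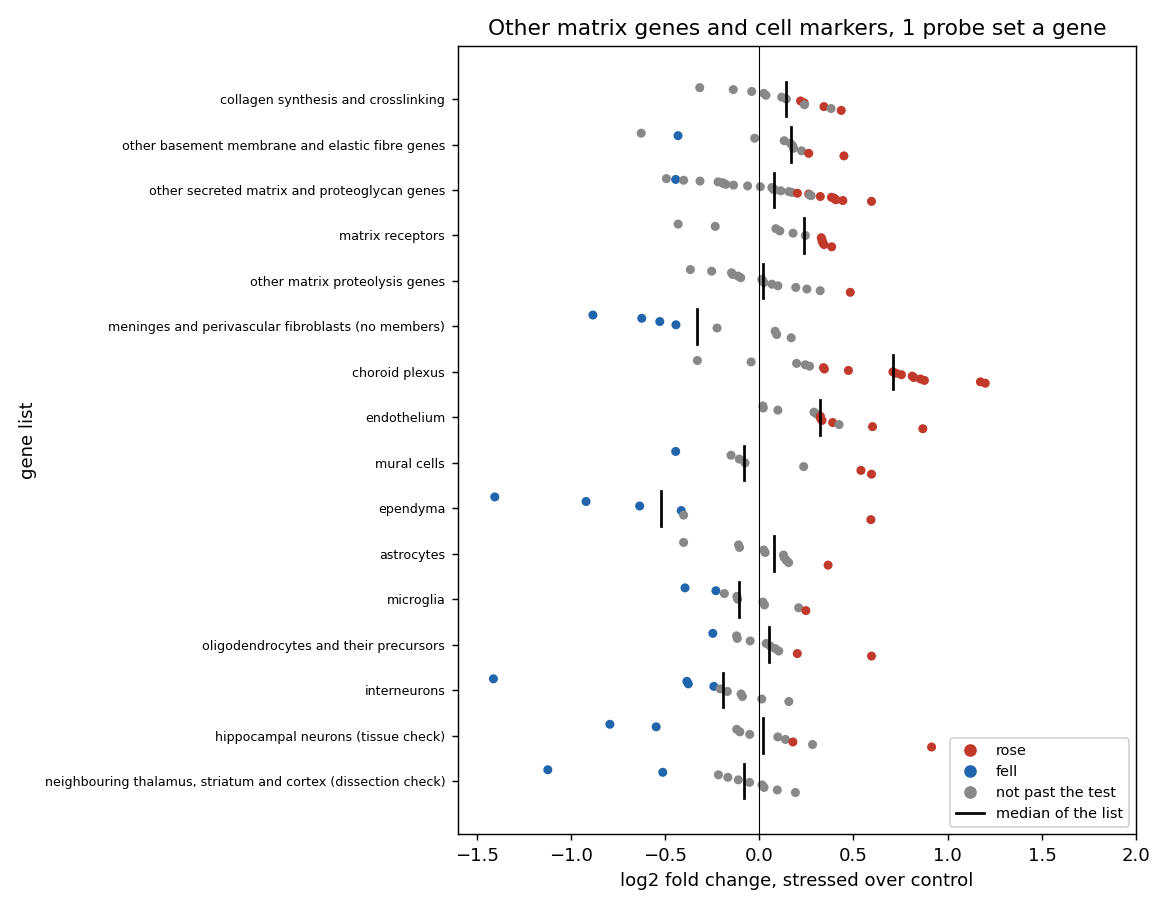
Log2 fold changes (x axis, stressed over nonstressed) of other matrix genes and of cell markers, 1 point a gene at its brightest tested probe set, with the median of each list as a line. The meningeal and ependymal lists have medians of -0.33 and -0.52, and the choroid plexus and endothelial lists of 0.71 and 0.32.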

How the data were processed

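Pooled hippocampal RNA was read on Affymetrix rat genome arrays, and the authors computed the deposited intensity values with GCOS, scaled to a target that the files show as an array mean of 300 after trimming at both ends. The intensity values were used as deposited, with zeros set to 0.1 before log2, and without the 57 control probe sets. The filter of 100 on at least 2 arrays took the place of detection calls. The annotation gave 1 symbol to 20826 probe sets, several to 436 and none to 9780, and each member matched RefSeq (GRCr8) by its gene identifier.

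Groups were compared by limma 3.58.1 in R 4.3.3 (lmFit, eBayes with an intensity trend, 7.73 degrees of freedom), adjusted by Benjamini-Hochberg over all 14791 tested probe sets. The fit was also run on simulated data with independent noise drawn from its own variances, which cannot test effects of pooling or dissection. Tables and plots used python 3.11.15, pandas 2.3.3 and matplotlib 3.10.9. The comparison was repeated under 15 other settings (scaling, filter, offset, floor, moderation, the methods' t-test, a replicate block and each array left out) and 1 chosen after seeing the data. Within each role the 4 tested probe sets with the smallest p were named with values per array, as were a fixed set of genes, and each other list gave its 3 genes with the smallest p. The members and lists were chosen with earlier results of these data known. The labels name no batch.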

Additional observations from a re-analysis of the deposited data

How the results depend on the processing

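Of the 25 called member probe sets, 8 (7 that fell and Igfbp2) held in each of the 13 alternatives by limma that tested them, and no called member changed sign in these alternatives. Member probe sets that rose numbered 11, but 5 with no filter on dim probe sets, 6 when a signal of 200 was required on 2 arrays, 7 without an intensity trend and 1 to 5 when 1 array was left out. The share of members that rose was then below that of all tested probe sets with no filter (3.40% against 3.94%) and without stressed replicate 1, control replicate 1 or control replicate 2, and above it without stressed replicate 2 (9.43% against 7.67%). Those that fell numbered 14, but 9 with the limit of 200 and 7 to 13 when 1 array was left out, and their share stayed above that of all probe sets in each setting by limma. These shares are not independent evidence, since the members were chosen with earlier results of these data known. A removal leaves 1 array in a group, which is then assumed to vary like the other group. The methods' t-test called 0 members on log2 signals and 0 on linear signals. On linear signals 15.1% of members were higher and 22.6% lower at an unadjusted p under 0.05, against 12.6% and 12.1% of all. Over all probe sets it called 4 as higher and 14 as lower on log2 signals, and 4 and 12 on linear signals, against 1771 and 1744 by limma. Without an intensity trend these were 1000 and 1147, and with 1 array left out 650 to 1148 and 791 to 1342. Members past 2-fold and an unadjusted p under 0.05 numbered 0, but 1 after quantile normalization, 1 after median centring, 3 with no filter and 0 to 2 with 1 array left out. Timp3 at 1389836_a_at, which was not called, went from 0.06 to -0.02 without control replicate 1 (-0.019 to 0.144 over the removals).

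With the replicate number as a block, 6 members rose and 13 fell. The numbers were not taken to pair the arrays, since the deviations of same-numbered arrays from their group means correlated at -0.11. With the pairing crossed, an alternative chosen after seeing the data, 11 members rose and 14 fell, and 2069 and 1970 of all probe sets. The block ended the calls of Hapln1, Col5a2 at 1370895_at, Lama2, Mmp24, Col25a1 and Col8a2. A signal under 100 entered the test only where at least 2 arrays reached 100.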
